A study of Mus musculus with 8 samples.

Results

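A set of 10 circadian clock genes was followed in hippocampal RNA of female mice after treatment with the adrenal androgen precursor dehydroepiandrosterone (DHEA) or with its vehicle. They were the rows of the deposited count table with the symbols Per1, Per2, Per3, Ciart, Dbp, Tef, Nr1d1, Nr1d2, Clock and Npas2, and all 10 were found among 29442 genes. They belong to the core clock and its direct outputs, and all 10 had over 100 counts in every library. RNA came from 4 female C57BL/6 J mice given DHEA (30 mg/kg/day) and 4 given sesame oil, both by subcutaneous injection for 21 days and both 6 to 8 weeks old. The animals carried no transgene or deletion named in the labels, and all had gone through forced swim, tail suspension and open field tests before dissection. The labels name the tissue hippocampus and the methods name its ventral part. The sources used here give a light/dark cycle of 12 hours but no hour of tissue collection for any library. The methods place the behavioural tests between 10 am and 6 pm, and tissue collection after their completion. Libraries are called DHEA 1 to 4 and oil 1 to 4 in accession order, by their deposited treatment labels. The signs in the study's own table of changed genes are opposite to those that these labels give, for every gene of that table, and its qRT-PCR of some of these genes in further samples has the direction of the table. Every direction below therefore holds only for the libraries as labelled and would turn if the labels were exchanged.

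The clock of mammalian cells is a feedback loop of transcription. CLOCK, or its relative NPAS2 in the forebrain, pairs with BMAL1 and switches on the period and cryptochrome genes, whose proteins return to the nucleus and inhibit the activators. The same activators drive Nr1d1 and Nr1d2, which encode the REV-ERB repressors of Bmal1, and the output factor Dbp, which acts with TEF and HLF on D-box sequences. In the hippocampus this loop runs outside the master pacemaker of the suprachiasmatic nucleus and has been linked to memory, and Per1 is also known to respond to neuronal activity and to corticosteroids.

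Promoter sequence is shown for 4 members on which the results turn, Per1, Per3 and Ciart, which were lowest in the same libraries, and Nr1d1. The sequences are the 250 bases before the RefSeq gene start in GRCm38.p6, written 5′ to 3′ on the strand of the gene, and capitals mark every match to the motifs named after them. Per1 is shown at its upstream start, chr11:69098699-69098948 on the plus strand. Ciart is at chr3:95882229-95882478, Per3 at chr4:151044666-151044915 and Nr1d1 at chr11:98775378-98775627, all on the minus strand.
Per1: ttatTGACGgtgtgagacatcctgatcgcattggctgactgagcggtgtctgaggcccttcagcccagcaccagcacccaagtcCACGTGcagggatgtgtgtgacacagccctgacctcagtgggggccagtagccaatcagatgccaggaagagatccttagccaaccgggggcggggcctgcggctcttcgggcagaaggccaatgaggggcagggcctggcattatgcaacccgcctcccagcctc
Ciart: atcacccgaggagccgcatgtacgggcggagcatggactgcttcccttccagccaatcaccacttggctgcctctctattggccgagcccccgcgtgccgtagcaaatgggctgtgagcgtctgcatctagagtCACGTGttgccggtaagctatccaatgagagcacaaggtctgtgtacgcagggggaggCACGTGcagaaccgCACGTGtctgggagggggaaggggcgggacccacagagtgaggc
Per3: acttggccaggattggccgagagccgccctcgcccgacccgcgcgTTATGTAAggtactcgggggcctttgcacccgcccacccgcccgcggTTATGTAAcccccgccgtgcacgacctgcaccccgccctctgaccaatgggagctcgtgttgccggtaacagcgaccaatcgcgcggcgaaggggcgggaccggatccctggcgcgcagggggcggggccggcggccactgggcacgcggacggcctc
Nr1d1: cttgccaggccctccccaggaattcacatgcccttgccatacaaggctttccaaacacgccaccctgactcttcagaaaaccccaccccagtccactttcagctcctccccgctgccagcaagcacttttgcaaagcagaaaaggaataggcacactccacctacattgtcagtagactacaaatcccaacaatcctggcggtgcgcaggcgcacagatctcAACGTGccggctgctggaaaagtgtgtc

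The motifs were searched on both strands in the RefSeq windows of 250 bases before to 50 after the start, of which 13 belonged to 9 of the members. The E-box CACGTG, the site of CLOCK and BMAL1, was found 3 times in the Ciart window, once in that of Per1 at its upstream start and in both windows of Tef, while 7.15% of all 32851 windows held it. The window of Nr1d1 held the related CACGTT, read as AACGTG on its strand, 28 bases before the start (4.68% of all windows). Per3 held the D-box TTATGTAA 205 and 158 bases before its start, a motif in 0.938% of all windows. Its looser form TTATNTAA, which includes the former, was also in 1 window of Tef (3.51% of all windows). The short cAMP element TGACG was in both windows of Per1 (20.8% of all windows), and the full TGACGTCA, which contains it, in none of the members (1.79%). TAGGTCA, the element of REV-ERB and ROR receptors, was in 0 member windows (2.61%), and the palindromic steroid response element in 0 (0.00913%).

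Total counts were 35748416 to 38038361 in the DHEA libraries and 31483772 to 35418297 in the oil libraries, so that counting error was small for all 10 genes. Libraries DHEA 1 and DHEA 2 lay lowest on the first principal component. On this component of log2 CPM (counts scaled to library size after TMM normalization) over 16813 genes, which held 29.6% of the variance, they lay at -23.1 and -55.8, and the other 6 libraries between -0.79 and 20.8. They were not alike in all respects, since on the second component DHEA 1 lay at 41.6, above all others, and DHEA 2 at -14.6, within the range of the other libraries (-27.1 to 11.1). Values without both are given beside the results for the clock genes called. The same holds for the activity, corticosteroid and marker lists counted at an unadjusted p under 0.05. Markers of hippocampal excitatory neurons were present in every library, with a summed level of 5164 to 5693 CPM over 6 of 6 markers and Camk2a the most abundant. Of 6 markers of the suprachiasmatic nucleus, Nms had 0 counts in all libraries, Six6 at most 1 count and Avp 3 to 32 counts. Prok2 had 2 to 14 counts and Lhx1 had 8 to 27 counts. A count of 0 allows up to 3 counts, or 0.0789 to 0.0953 CPM, counting error only. The most abundant gene of that list, Vip, had 442 to 764 counts. Vip is also made by hippocampal interneurons.

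Levels were compared between genes per length, as deposited FPKM (fragment counts scaled to gene length and depth). Tef was the most abundant member at 48.9 ± 3.07 FPKM in the oil libraries and 44.6 ± 3.72 FPKM in the DHEA libraries (SD, n = 4 each). Nr1d1 and Nr1d2 followed with 30.6 ± 1.84 and 23.4 ± 2.50 FPKM in the oil libraries, then Dbp with 16.5 ± 2.13 and Clock with 12.7 ± 0.298 FPKM. Per1 (7.15 ± 0.972), Per3 (6.71 ± 0.387), Per2 (6.25 ± 0.495) and Npas2 (6.09 ± 0.524 FPKM) lay within the spread of their neighbours. Ciart was lowest with 3.66 ± 0.365 FPKM. In the DHEA libraries the upper 6 genes kept this order, and Npas2 (5.82 ± 0.402 FPKM) stood above Per3 (4.88 ± 1.89 FPKM) and Per2 (4.849 ± 1.004 FPKM), all again within their spread.

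**Figure D1:**
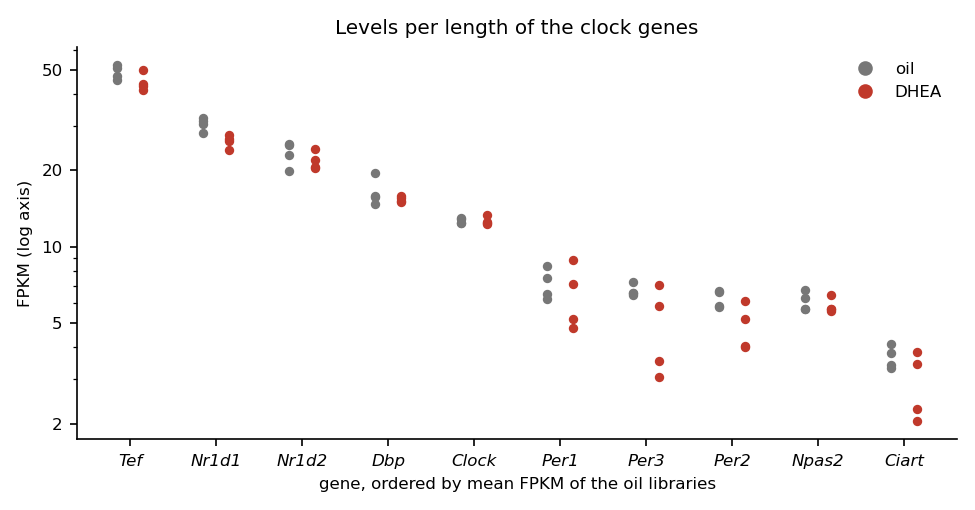
Levels per length of the 10 clock genes, in FPKM on a log axis, ordered by the mean of the oil libraries; each point is a library. Tef was highest and Ciart lowest in both groups, and the DHEA libraries spread more widely than the oil libraries for Per3.

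The comparison of DHEA with sesame oil asks whether chronic DHEA changes expression in the hippocampus. With the quasi-likelihood test of edgeR and Benjamini-Hochberg correction, none of the 10 clock genes passed an adjusted p of 0.05, nor did any of the 27612 genes tested (0.0%). In DESeq2, 0 of the 9 members with an adjusted p passed, against 1.76% of the 10481 genes with one. The smallest adjusted p among the members was 0.318 in edgeR (Per2) and 0.0812 in DESeq2 (Nr1d1). At an unadjusted p under 0.05, 3 of the 10 differed in edgeR, where 9.31% of all genes tested and 15.7% of the 12780 genes averaging 100 counts or more did. The 3 were Per2, Per3 and Nr1d1, all lower in the DHEA libraries (4.49% of all genes tested and 7.6% of those averaging 100 counts or more were lower at this threshold). No member was higher (4.82% of all genes). DESeq2 gave 2 of the 10, Per2 and Nr1d1 (8.22% of all genes), and edgeR without DHEA 1 and DHEA 2 gave 1, Nr1d1 (7.89% of all genes). The fitted log2 fold change was negative in 9 of the 10 members, with a median of -0.11, against a median of 0.01 over all genes tested, of which 48.8% were negative. No member separated the groups without overlap, which 5.04% of all genes did.

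**Figure D2:**
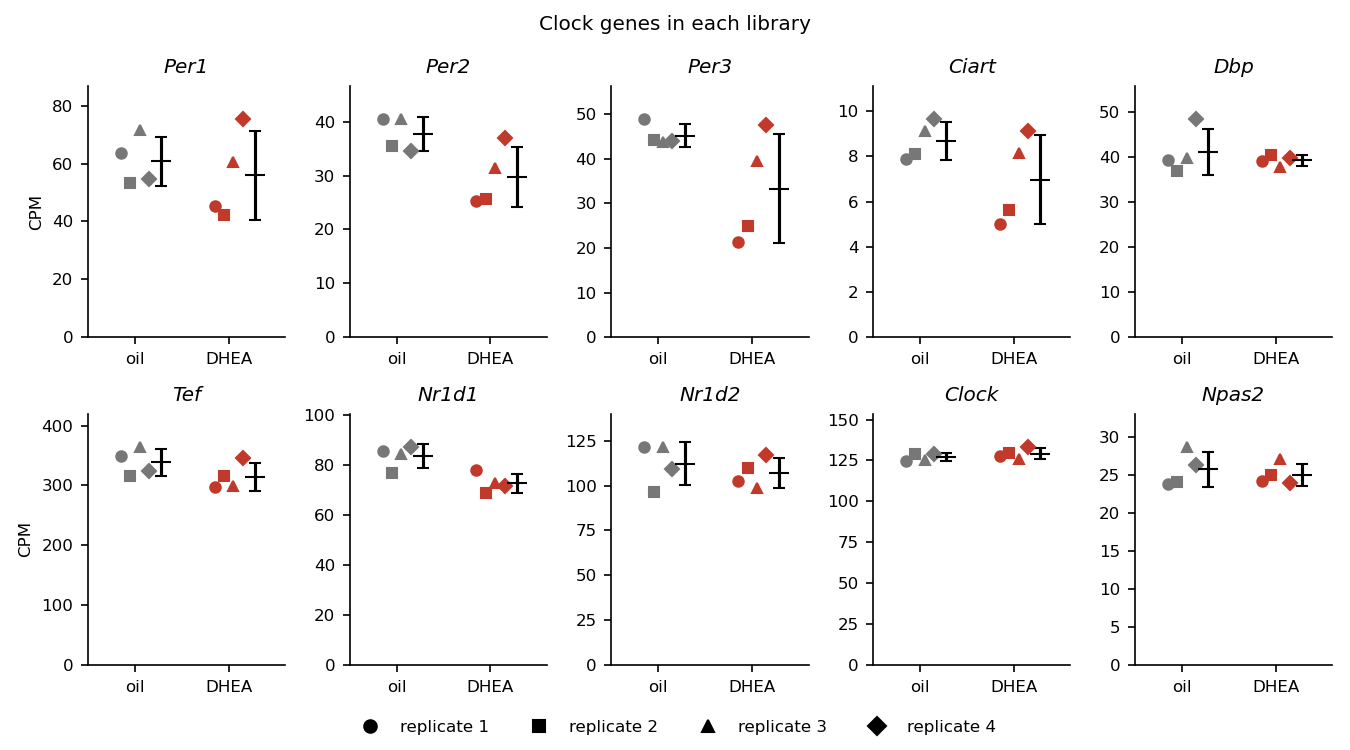
Expression of each clock gene in CPM (vertical axes start at 0) in the 4 oil and 4 DHEA libraries; symbols mark the replicate, bars the mean ± SD. Per1, Per2, Per3 and Ciart were lowest in DHEA 1 and DHEA 2, while Clock varied little in either group.

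The period genes encode the repressors at the centre of the loop. Per3 was 21.4, 24.9, 39.5 and 47.5 CPM in DHEA 1 to 4, and 49.0, 44.2, 43.7 and 44.0 CPM in oil 1 to 4. The first pair of DHEA libraries was therefore far below all others, DHEA 3 was just below the oil libraries and DHEA 4 lay among them. For Per3 the log2 fold change was -0.44 (standard error 0.17, unadjusted p = 0.0189, adjusted p = 0.422 after Benjamini-Hochberg correction in the quasi-likelihood test of edgeR), 26.3% lower than in the oil libraries. An exact permutation test, two-sided over 70 allocations with a smallest possible p of 0.0286, gave p = 0.114. Without DHEA 1 and DHEA 2, the log2 fold change was -0.06 (unadjusted p = 0.472, edgeR). Without DHEA 1 alone it was -0.28 (unadjusted p = 0.0581, edgeR) and without DHEA 2 alone -0.33 (unadjusted p = 0.0509, edgeR). Without DHEA 3 it was -0.53 (unadjusted p = 0.00686, edgeR) and without DHEA 4 -0.66 (unadjusted p = 0.000225, edgeR). DESeq2 gave a log2 fold change of -0.45 with an unadjusted p of 0.0961 for the same 8 libraries.

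Per2 was 25.2, 25.6, 31.4 and 37.0 CPM in DHEA 1 to 4, and 40.4, 35.5, 40.6 and 34.7 CPM in oil 1 to 4. Only DHEA 4 reached the range of the oil libraries. Per2 had a log2 fold change of -0.34 (standard error 0.11, unadjusted p = 0.00561, adjusted p = 0.318 in the edgeR quasi-likelihood fit), 21.1% lower than in the oil libraries, and the exact permutation test gave p = 0.0857. Over the fits that each lacked 1 library it stayed between -0.46 and -0.27, and the unadjusted p stayed at or below 0.0209. Without both DHEA 1 and DHEA 2 it was -0.15 (unadjusted p = 0.134, edgeR).

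Per1 was 45.3, 42.4, 60.7 and 75.5 CPM in DHEA 1 to 4, and 63.5, 53.1, 71.7 and 54.8 CPM in oil 1 to 4. DHEA 2 was the lowest and DHEA 4 the highest of all 8 libraries. The groups differed by less than the spread between replicates, with a log2 fold change of -0.12 (standard error 0.14, adjusted p = 0.747 in the edgeR quasi-likelihood fit, exact permutation test p = 0.6). The direction turned to 0.16 without DHEA 1 and DHEA 2 (unadjusted p = 0.188, edgeR), while without DHEA 4 the value was -0.30 (unadjusted p = 0.0201, edgeR).

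Ciart, whose product (also called CHRONO) represses CLOCK and BMAL1, had 5.01, 5.64, 8.13 and 9.12 CPM in DHEA 1 to 4, and 7.88, 8.10, 9.11 and 9.66 CPM in oil 1 to 4. It followed the same order as Per3 in the DHEA libraries, with DHEA 1 and DHEA 2 below every other library. Ciart had a log2 fold change of -0.32 (standard error 0.17, adjusted p = 0.586 in the edgeR quasi-likelihood fit, exact permutation test p = 0.257), and -0.02 without DHEA 1 and DHEA 2. Without DHEA 4 it was -0.47 (unadjusted p = 0.0114, edgeR) and without DHEA 3 it was -0.40 (unadjusted p = 0.0387, edgeR).

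**Figure D3:**
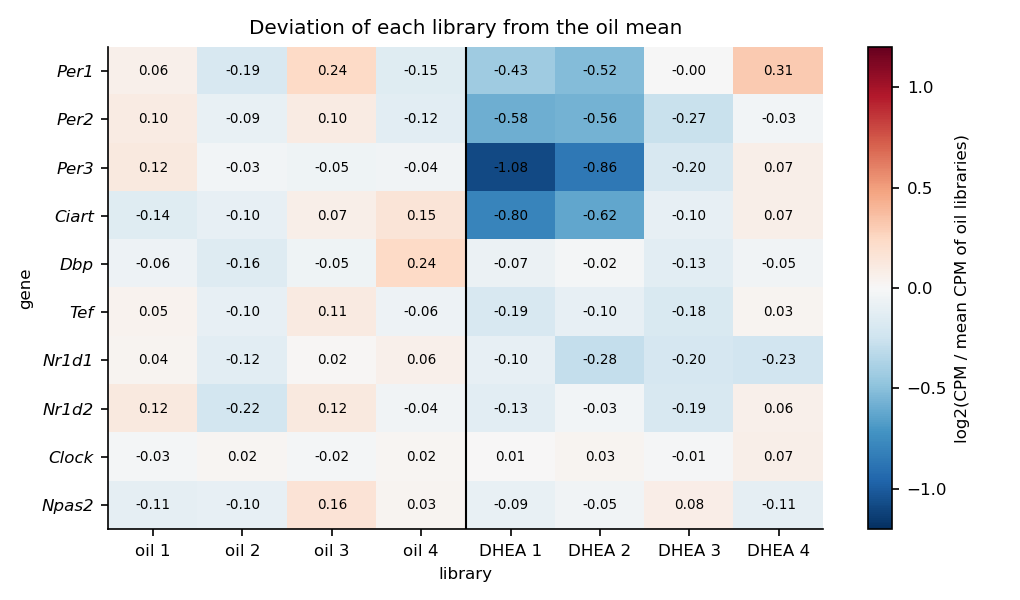
Deviation of each library from the mean of the oil libraries, as log2 of the CPM ratio, for the 10 clock genes (rows) and 8 libraries (columns); blue is lower and red higher. The values of Per3 and Ciart were -1.08 and -0.80 in DHEA 1, and -0.86 and -0.62 in DHEA 2.

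In 4 of the 10 members, Per1, Per2, Per3 and Ciart, DHEA 1 and DHEA 2 were the lowest libraries. The same held in 17.0% of the 12780 genes averaging 100 counts or more. This count was made after the values were seen and has no test. The summed level of the 10 activity-induced genes listed, led by Egr1 in all libraries but DHEA 4, where Arc led, was also lowest in these libraries, at 282.5 and 353.6 CPM, against 489.1 and 524.9 in DHEA 3 and 4 and 407.9 to 694.8 CPM in the oil libraries. Mitochondrial transcripts took 7.87% and 9.34% of the counts in DHEA 1 and DHEA 2, 7.59% and 7.29% in DHEA 3 and 4 and 6.37% to 7.23% in the oil libraries. Choroid plexus markers, 5 of 5 detected and led by Ttr, summed to 4274 CPM in DHEA 1 and 71.4 CPM in DHEA 2, so that these libraries lay at opposite ends of that list. The part of these values in the period and Ciart levels was not tested.

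For Per1 and Per2, Pearson's r of log2 CPM was 0.853 over the 8 libraries (exact permutation test over all pairings, p = 0.0092, adjusted p = 0.0368 over the 8 pairs of members computed) and Spearman's rho was 0.81 (p = 0.0218). Without DHEA 2 and DHEA 4, the libraries farthest from the median of Per1, r was 0.837 (exact permutation p = 0.0458, n = 6) and rho was 0.771 (p = 0.103). Without DHEA 1 and DHEA 2, the lowest libraries of both genes, r was 0.503 (exact permutation p = 0.319, n = 6) and rho was 0.6 (p = 0.242). With the group means removed, r over the 8 libraries was 0.975. Within the groups, r was 0.99 in the DHEA libraries and 0.917 in the oil libraries (4 libraries each, given as a description). For Per2 and Per3 no pooled value is given, because DHEA 1 and DHEA 2 formed a separate cluster. Over the other 6 libraries r was 0.755 (exact permutation test, p = 0.0806) and rho was 0.429 (p = 0.419). The remaining pairs were Per3 with Dbp, Dbp with Tef, Ciart and Npas2, Nr1d1 with Nr1d2, and Clock with Npas2. None of them had p under 0.05 for r or rho over the 8 libraries (exact permutation tests). The smallest were p = 0.26 for r of Clock and Npas2 (r = -0.463) and p = 0.243 for rho of Dbp and Tef (rho = 0.476).

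**Figure D4:**
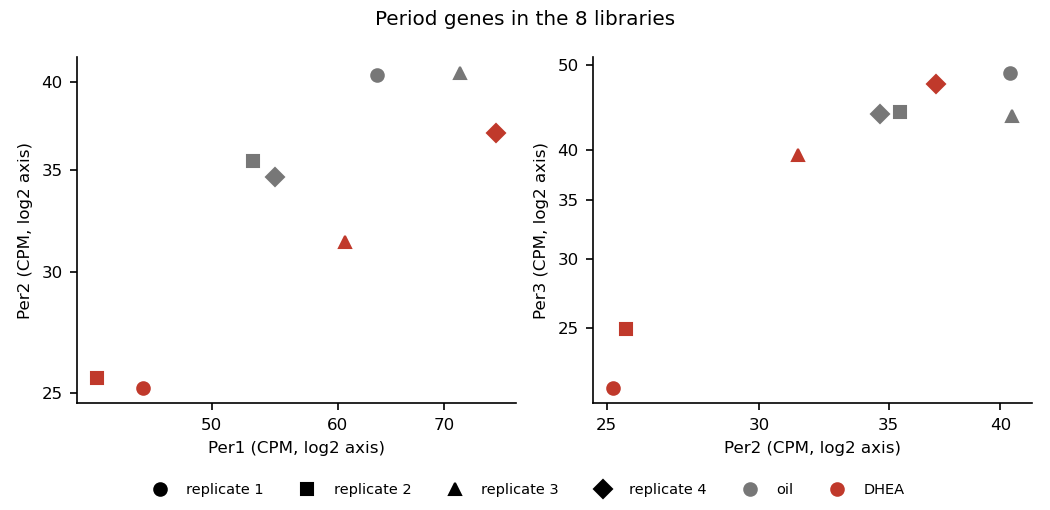
Per2 against Per1 (left) and Per3 against Per2 (right) in CPM on log2 axes; each symbol is a library, with oil in grey and DHEA in red. DHEA 1 and DHEA 2 lie at the lower left of both panels, at 25.2 and 25.6 CPM of Per2.

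The REV-ERB genes encode nuclear receptors that repress Bmal1. Nr1d1 was 77.9, 68.8, 72.8 and 71.5 CPM in DHEA 1 to 4, and 85.8, 76.8, 84.6 and 87.5 CPM in oil 1 to 4. Only DHEA 1 exceeded the lowest oil library, oil 2. For Nr1d1 the log2 fold change was -0.20 (standard error 0.07, unadjusted p = 0.00666, adjusted p = 0.336 in the edgeR quasi-likelihood fit), 13.1% lower than in the oil libraries, and the exact permutation test gave p = 0.0571. Without DHEA 1 and DHEA 2 it was as large, -0.22 (unadjusted p = 0.00397, edgeR). It lay between -0.24 and -0.18 over the fits lacking 1 library, with unadjusted p between 0.00337 and 0.0265, and was -0.16 once the GC trend of every library was removed (unadjusted p = 0.0282, edgeR). For each library, the deviation of log2 CPM from the gene's mean over all libraries was correlated with GC content over genes. This correlation ran from -0.081 to -0.0011 in the DHEA libraries and from 0.0377 to 0.102 in the oil libraries, without overlap. Such deviations balance over the libraries, so that opposite signs are partly built in. Nr1d2 was 98.5 to 117.1 CPM in the DHEA libraries and 96.3 to 121.8 CPM in the oil libraries. Its groups overlapped throughout, with a log2 fold change of -0.07 (standard error 0.08, adjusted p = 0.731 in the edgeR quasi-likelihood fit). With each library left out, the value ran from -0.14 without oil 2 (unadjusted p = 0.0918, edgeR) to -0.03 without oil 1. It was -0.12 with the GC trend removed (unadjusted p = 0.149, edgeR).

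Dbp and Tef encode proline- and acid-rich bZIP factors, which carry the rhythm of the loop to its output genes. Dbp was 39.2, 40.5, 37.8 and 39.9 CPM in DHEA 1 to 4, and 39.5, 37.0, 39.8 and 48.6 CPM in oil 1 to 4. Library oil 4 was the highest, and the other 7 libraries lay between 37.0 and 40.5 CPM. Dbp had a log2 fold change of -0.07 (standard error 0.08, adjusted p = 0.766 in the edgeR quasi-likelihood fit) and turned to 0.02 without oil 4. Dbp thus stayed at the level of the oil libraries in DHEA 1 and DHEA 2, where Per3 was low. Tef was 297, 316, 298 and 346 CPM in DHEA 1 to 4, and 350, 316, 365 and 325 CPM in oil 1 to 4. DHEA 1 and DHEA 3 were below every oil library, and the log2 fold change of Tef was -0.11 (standard error 0.07, adjusted p = 0.639 in the edgeR quasi-likelihood fit). Without DHEA 4 it was -0.16 (unadjusted p = 0.0274, edgeR).

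Clock, an activator, had the lowest coefficient of variation of the 10 members in both groups. It was 127.7, 129.7, 126.0 and 133.5 CPM in DHEA 1 to 4, and 124.7, 128.9, 125.0 and 129.1 CPM in oil 1 to 4, with coefficients of variation of 2.49% and 1.89%. The coefficient of variation of Per3 was 36.9% in the DHEA libraries and 5.58% in the oil libraries. Clock had a log2 fold change of 0.03 (standard error 0.06, adjusted p = 0.89 in the edgeR quasi-likelihood fit). Npas2, the forebrain relative of Clock, was 23.9 to 27.1 CPM in the DHEA libraries and 23.8 to 28.7 CPM in the oil libraries. It was highest in DHEA 3 and oil 3, and the log2 fold change of Npas2 was -0.04 (standard error 0.09, adjusted p = 0.891 in the edgeR quasi-likelihood fit).

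Ratios within a library do not depend on the scaling between libraries. The log2 ratio of Per3 to Clock in FPKM was -2.01, -1.81, -1.10 and -0.92 in DHEA 1 to 4, and -0.77, -0.97, -0.94 and -0.98 in oil 1 to 4. DHEA 1 and DHEA 2 were again apart, and DHEA 4 lay among the oil libraries. That of Nr1d1 to Npas2 was 2.16 ± 0.12 in the DHEA libraries and 2.33 ± 0.12 in the oil libraries (SD, n = 4 each), with overlap. That of Dbp to Npas2 was 1.41 ± 0.12 and 1.43 ± 0.18 (SD, n = 4 each), a difference within the spread between replicates.

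**Figure D5:**
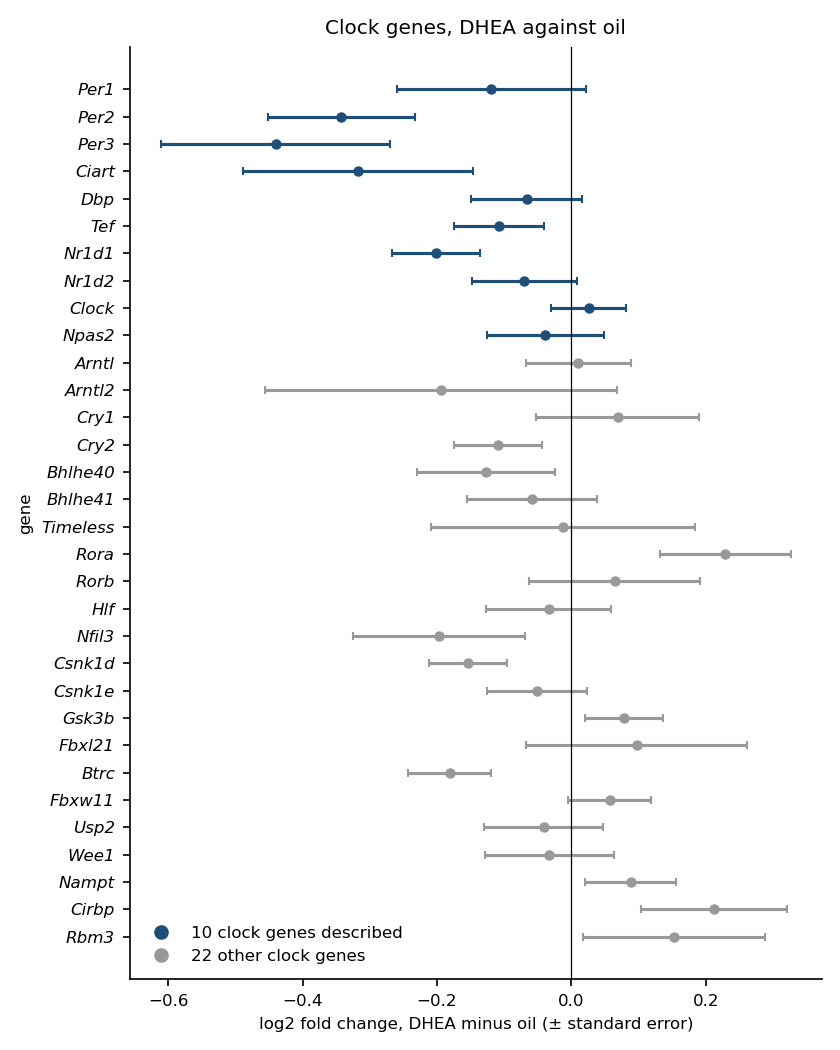
Log2 fold change of DHEA against oil with its standard error from edgeR, for the 10 clock genes (blue) and the 22 other clock genes (grey). Per3 had the lowest value, -0.44, and Clock and Arntl lay close to 0.

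The rest of the clock pathway was a list of 22 genes. None of the 22 passed after correction, with 0 in edgeR (smallest adjusted p = 0.364). DESeq2 also gave 0 among those given an adjusted p (smallest adjusted p = 0.0965). At an unadjusted p under 0.05, 2 were lower and 1 was higher in the DHEA libraries (4.49% and 4.82% of all genes). Of the 12780 genes averaging 100 counts or more, 971 were lower and 1033 higher at this threshold. The median log2 fold change of the list was -0.02, with 10 genes higher and 12 lower. The 2 lower genes act on the stability of the PER proteins. Btrc, a subunit of the ubiquitin ligase that marks phosphorylated PER proteins for degradation, was 116.5, 110.7, 109.4 and 106.7 CPM in DHEA 1 to 4, and 132.1, 120.5, 131.7 and 118.4 CPM in oil 1 to 4. All DHEA libraries were below all oil libraries, by a small margin between DHEA 1 and oil 4. Btrc had a log2 fold change of -0.18 (standard error 0.06, unadjusted p = 0.00897, adjusted p = 0.364 in the edgeR quasi-likelihood fit). Csnk1d, the casein kinase that phosphorylates PER proteins, was 134.4, 125.7, 125.2 and 134.5 CPM in DHEA 1 to 4, and 149.4, 141.2, 144.8 and 142.8 CPM in oil 1 to 4, again without overlap. Csnk1d had a log2 fold change of -0.15 (standard error 0.06, unadjusted p = 0.0158, adjusted p = 0.41 from the same test), and its unadjusted p was 0.0541 without oil 1. The exact permutation test gave p = 0.0286 for both, the smallest it allows. Both were the only genes of the list without overlap, 2 of 22, both lower, where 2.62% of all genes and 4.23% of those averaging 100 counts or more were lower without overlap. Btrc stood at -0.22 when DHEA 1 and DHEA 2 were left out (unadjusted p = 0.00295, edgeR), and Csnk1d at -0.16 (unadjusted p = 0.0106, edgeR). Their paralogs Fbxw11 and Csnk1e, with log2 fold changes of 0.06 and -0.05, had unadjusted p of 0.367 and 0.505 in edgeR.

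Rora, which encodes a nuclear receptor that activates Bmal1 at the sites bound by REV-ERB, was 55.7, 63.1, 62.4 and 70.8 CPM in DHEA 1 to 4, and 53.0, 48.6, 66.1 and 47.5 CPM in oil 1 to 4. Library oil 3 was high among the oil libraries, so that the groups overlapped. For Rora the log2 fold change was 0.23 (standard error 0.10, unadjusted p = 0.0294, adjusted p = 0.485 in the edgeR quasi-likelihood fit), with an unadjusted p of 0.0534 in DESeq2. Without DHEA 4, oil 1, oil 2 or oil 4 its unadjusted p was 0.105, 0.0582, 0.0992 and 0.108 (edgeR). It was also above 0.05 with the GC trend removed (0.0902, log2 fold change 0.17). With limma on FPKM at a pseudocount of 1 it was 0.221 (log2 fold change 0.11). With filterByExpr it was 0.0694 and with a minimum of 10 counts 0.0585, with the log2 fold change at 0.22 in both. Without DHEA 1 the log2 fold change of Rora was 0.28 (unadjusted p = 0.00889, edgeR). Without oil 3 it was 0.34 (unadjusted p = 0.00123, edgeR), and without both DHEA 1 and DHEA 2 it was 0.30 (unadjusted p = 0.0176, edgeR). Rora is also strongly expressed in thalamus. The summed level of 5 thalamus markers, all detected and led by Plekhg1, was 64.2, 82.0, 75.1 and 79.5 CPM in DHEA 1 to 4. In oil 1 to 4 it was 73.2, 67.4, 53.7 and 77.1 CPM, lowest in oil 3, the oil library with the most Rora. The part of thalamic tissue in the values of Rora was not tested. Rorb, a further receptor of that family, had a log2 fold change of 0.06 (standard error 0.13, unadjusted p = 0.621, edgeR).

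Arntl, the gene of BMAL1 and partner of Clock, was 30.6, 31.1, 35.1 and 28.9 CPM in DHEA 1 to 4, and 31.5, 32.3, 30.5 and 30.6 CPM in oil 1 to 4. The groups overlapped throughout, with a log2 fold change of 0.01 (standard error 0.08, adjusted p = 0.984 in the edgeR quasi-likelihood fit). Its paralog Arntl2 was 4.12, 4.04, 10.1 and 11.8 CPM in DHEA 1 to 4, and 7.88, 8.92, 9.39 and 8.18 CPM in oil 1 to 4. DHEA 1 and DHEA 2 were below all oil libraries and DHEA 3 and DHEA 4 above them, so that the fitted log2 fold change of Arntl2 was -0.19 with all libraries (standard error 0.26, unadjusted p = 0.47, edgeR) and 0.34 without DHEA 1 and DHEA 2 (unadjusted p = 0.0192, adjusted p = 0.541, edgeR). The cryptochrome genes, partners of the period genes, had log2 fold changes of 0.07 for Cry1 and -0.11 for Cry2 (standard errors 0.12 and 0.07). Cry2 was 89.6, 96.9, 102.3 and 108.3 CPM in DHEA 1 to 4, and 105.5 to 111.5 CPM in the oil libraries. As for Per3, DHEA 1 was the lowest library and DHEA 4 lay among the oil libraries, and the log2 fold change of Cry2 was -0.15 without DHEA 4 (unadjusted p = 0.0309, edgeR), -0.06 without DHEA 1 (unadjusted p = 0.357) and -0.03 without both DHEA 1 and DHEA 2 (unadjusted p = 0.582).

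Of the other repressors, Bhlhe40 and Bhlhe41, which compete for the E-box, had log2 fold changes of -0.13 and -0.06 (standard errors 0.10 and 0.10), and Timeless -0.01 (standard error 0.20). With each library left out, Bhlhe40 ran from -0.24 without DHEA 4 (unadjusted p = 0.0156, edgeR) to -0.05 without oil 1 (unadjusted p = 0.649), and it was -0.05 without both DHEA 1 and DHEA 2 (unadjusted p = 0.678). The D-box genes Hlf, an activator like Dbp and Tef, and Nfil3, the repressor at the same sites, had -0.03 and -0.20 (standard errors 0.09 and 0.13). Cirbp and Rbm3, RNA-binding proteins induced by mild cold and by the daily temperature rhythm, had 0.21 and 0.15 (standard errors 0.11 and 0.14). Cirbp was 52.1, 55.5, 57.9 and 55.2 CPM in DHEA 1 to 4, and 41.5, 47.8, 39.1 and 62.1 CPM in oil 1 to 4, so that oil 4 alone exceeded the DHEA libraries. Without oil 4 its log2 fold change was 0.37 (unadjusted p = 0.000446, edgeR), and its unadjusted p was 0.0495 without DHEA 1 and 0.0375 with the GC trend removed. Rbm3 was 95.6 CPM in DHEA 4 and 51.3 to 67.6 CPM in the other 7 libraries. The outputs Usp2, Wee1 and Nampt had -0.04, -0.03 and 0.09, and the kinase and ligase genes Gsk3b and Fbxl21 had 0.08 and 0.10. All of these had unadjusted p above 0.05 in edgeR with all 8 libraries.

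Per1 belongs to the genes induced by neuronal activity and by corticosteroids, so these lists are given beside it. Of 10 activity-induced genes, 5 were lower at an unadjusted p under 0.05 in edgeR and 0 were higher (4.49% and 4.82% of all genes), with a median log2 fold change of -0.33. Of the 12780 genes averaging 100 counts or more, 971 were lower and 1033 higher at this threshold. DESeq2 gave 1 of the 10 activity-induced genes, Egr1 (8.22% of all genes in either direction). Without DHEA 1 and DHEA 2, edgeR gave 0 of them (7.89% of all genes in either direction), with a median of -0.05. The level of Egr1, an activity-induced transcription factor, was 123.2 ± 26.9 CPM in the DHEA libraries and 175 ± 43.3 CPM in the oil libraries (SD, n = 4 each, adjusted p = 0.293 in the edgeR quasi-likelihood fit), with a log2 fold change of -0.50 and of -0.27 without DHEA 1 and DHEA 2 (unadjusted p = 0.116, edgeR). Of 10 corticosteroid-induced genes, 5 were higher and 0 were lower at the same threshold, with a median of 0.33. DESeq2 also gave 5 (8.22% of all genes in either direction), and edgeR without DHEA 1 and DHEA 2 gave 7 (7.89%), with a median of 0.47. Pdk4, a kinase of pyruvate dehydrogenase in that list, was 14.4 ± 1.87 CPM in the DHEA libraries and 10.1 ± 0.633 CPM in the oil libraries (SD, n = 4 each, adjusted p = 0.23 from the same test). None of the 20 genes had an adjusted p under 0.05 in edgeR, and Pdk4 alone had one in DESeq2 (adjusted p = 0.0122). The summed level of the corticosteroid list was 547.6 CPM in DHEA 4, the library with the most Per1, and 338.5 to 382.4 CPM in the other 7 libraries. Zbtb16 led the list in those 7 libraries and Sgk1 in DHEA 4, with 145.7 CPM there and 50.4 to 79.6 CPM elsewhere. The part of either list in the values of Per1 was not tested.

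Some markers of other cell types also differed between the groups at the unadjusted threshold. Of 5 oligodendrocyte markers, all detected and led by Mbp, 5 were higher in the DHEA libraries at an unadjusted p under 0.05 in edgeR. Their median log2 fold change was 0.38. Higher at this threshold were 4.82% of all genes and 1033 of the 12780 averaging 100 counts or more. None of the 5 markers passed after correction in edgeR, while DESeq2 called Mbp and Cnp (adjusted p = 0.0489 and 0.045). Without DHEA 1 and DHEA 2, 4 of the 5 were higher at the unadjusted threshold (7.89% of all genes in either direction), with a median of 0.30. Their summed level was 3850 to 5037 CPM in the DHEA libraries and 2708 to 3868 CPM in the oil libraries, overlapping only between DHEA 3 and oil 4. The medians of 5 astrocyte, 5 microglia and 4 endothelium markers, all detected, were 0.17, 0.15 and 0.12. At the unadjusted threshold 3, 2 and 1 of them were higher in edgeR (4.82% of all genes). DESeq2 gave 1, 2 and 1 higher (8.22% of all genes in either direction). Without DHEA 1 and DHEA 2, edgeR gave 0 higher in each list and 1 endothelium marker lower (7.89% of all genes in either direction). The lists had summed levels of 1461 to 1744, 205.3 to 276.9 and 152.6 to 192.5 CPM in the DHEA libraries and 1312 to 1531, 190.4 to 221.4 and 162.2 to 172.5 CPM in the oil libraries. Their most abundant genes were Slc1a3, Csf1r and Flt1. For the 6 excitatory neuron markers the median was -0.05 (log2 fold change), with 0 at the unadjusted threshold in edgeR and 2 lower without DHEA 1 and DHEA 2. In tissue RNA, fewer cells of a type and less RNA per cell cannot be told apart, and the part of cell composition in the clock gene values was not tested.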

How the data were processed

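The labels put 4 libraries in each group. According to the methods, low-quality reads were removed, the rest aligned with HISAT2 and counted with HTSeq. The submitters' processing notes also name fastp and the build GRCm39, while versions and annotation are not given in the sources used here. The authors deposited raw counts per gene, and FPKM calculated from them: the implied gene length was equal within 0.1% in 25234 of 25234 genes checked. Whether reads were counted by strand is not stated, so reads of overlapping antisense genes cannot be told apart.

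From the counts, edgeR 4.0.16 (R 4.3.3) gave TMM normalization, CPM and a quasi-likelihood fit of the 27612 genes that had any count (prior count 0.125), with p-values adjusted over all of them. The standard error is the log2 fold change divided by the square root of F. A gene passed at an adjusted p under 0.05. DESeq2 1.42.0 and limma 3.58.1 were alternatives, beside RLE and upper quartile factors, filters on low counts, a prior count of 1, robust moderation, thinning and leaving out each library. Leaving out DHEA 1 and DHEA 2 together (also for the relation of Per1 and Per2 and for the companion and marker lists) and removing the GC trend (lowess, span 0.3, GC of the longest GENCODE transcript for 92.7% of 16813 genes) were added after the data were seen. The labels give no batch and do not say that the libraries are from separate animals, so p-values measure the spread between these samples. Named genes were the members, the pathway, companion and marker lists, and the 3 genes nearest in pattern to Dbp and to Clock. The 3 genes nearest in pattern to Per3 were added after its values were seen. Some genes of these lists are not reported here and are in none of the counts of the lists. The members and lists were chosen with earlier results of these data known. Promoters are RefSeq's (GRCm38.p6), found for 9 of 10 members. The scripts were tested on simulated data.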

Additional observations from a re-analysis of the deposited data

Results flagged for a closer look

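Of 64 groups of 4 libraries (the clock members and other clock genes in both treatments), 2 had a library set apart from the other 3 by Dixon's 95% criterion, the gap to the nearest library as a ratio to the whole range. About 3.2 are expected by chance. Per3 was 49.0 CPM in oil 1 and 43.7 to 44.2 CPM in the other oil libraries (ratio 0.919). Cry2 was 111.5 CPM in oil 4 and 105.5 to 105.9 CPM in the other oil libraries (ratio 0.93). The low pair of DHEA libraries in Per3 cannot be found by this measure, which looks at single libraries.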

How the results depend on the processing

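The 3 clock members with an unadjusted p under 0.05 became 1 without DHEA 1 and DHEA 2 together (Nr1d1), and 2 to 6 with each library left out, all lower in the DHEA libraries. The highest count, 6, was without DHEA 4, and the share of all genes called in that fit is not given here. Of the 22 other clock genes, 3 became 1 without oil 1, and 1 to 4 over all libraries left out. No member or other clock gene had an adjusted p under 0.05 in any alternative. Per3 had an unadjusted p of 0.0961 with DESeq2, 0.0563 with filterByExpr, 0.15 with robust moderation and 0.0633 and 0.0517 with limma on FPKM at pseudocounts of 1 and 0.1. In the same order its log2 fold change was -0.448, -0.448, -0.44, -0.446 and -0.53, as large as in the main fit or larger. Among these genes and all alternatives, 575 values kept direction and side of the threshold, 20 became weaker, 9 stronger and 36 changed sign. Those that changed sign without DHEA 1 and DHEA 2 were Per1 (0.158), Arntl2 (0.343), Timeless (0.072), Csnk1e (0.023), Fbxl21 (-0.033), Fbxw11 (-0.028), Usp2 (0.044) and Nampt (-0.016). After removal of the GC trend they were Clock (-0.03) and Timeless (0.021). Clock was -0.001 and -0.002 and Arntl -0.011 and -0.019 with limma at the same pseudocounts, and Arntl was -0.008 after thinning. The r of Per1 and Per2 was 0.503 without DHEA 1 and DHEA 2. The causes were not tested. With each library left out, the log2 fold change ran from -0.115 to 0.022 for Dbp, -0.079 to 0.011 for Npas2, -0.047 to 0.049 for Arntl, -0.5 to 0.01 for Arntl2, -0.02 to 0.123 for Cry1, -0.138 to 0.021 for Bhlhe41, -0.151 to 0.056 for Timeless, -0.009 to 0.2 for Rorb, -0.124 to 0.024 for Hlf, -0.113 to 0.037 for Usp2, -0.096 to 0.024 for Wee1 and -0.057 to 0.254 for Rbm3. The difference in the log2 ratio of Per3 to Clock ran from -0.72 to -0.357, of Nr1d1 to Npas2 from -0.214 to -0.118 and of Dbp to Npas2 from -0.092 to 0.048. The methods say that littermates were the controls in the behavioural tests, but no litter is given for any library. No paired analysis was possible because the labels give no number shared between the groups.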

Other observations

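Genes outside the lists were compared with Dbp and Clock by the root mean square difference of standardized log2 CPM over the 8 libraries, among 12780 genes averaging 100 counts or more. Nearest to Dbp were Garem2 (0.403), Ushbp1 (0.459) and Rpf1 (0.504), all highest in oil 4. Nearest to Clock were Nt5c (0.2), Csf1 (0.308) and Gbp9 (0.324), all highest in DHEA 4. Genes nearest to Per3, chosen after its values were seen, were Cep43 (0.101), Il18bp (0.115) and Ccnl2 (0.15). Ccnl2, which encodes a cyclin of nuclear speckles, was 49.9 and 53.6 CPM in DHEA 1 and DHEA 2, 93.1 and 97.5 CPM in DHEA 3 and DHEA 4 and 96.9 to 103.7 CPM in the oil libraries. Il18bp, which encodes a protein that binds interleukin-18, was 2.77 and 3.42 CPM in DHEA 1 and DHEA 2, 7.41 and 8.21 CPM in DHEA 3 and DHEA 4 and 7.78 to 9.42 CPM in the oil libraries. None of these 9 genes had an adjusted p under 0.05 for DHEA against oil in edgeR, where the smallest was 0.385 for Ccnl2.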
